A study of Mus musculus with 6 samples.

Results

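The 32 genes described here act in the folding, import and quality control of proteins in the endoplasmic reticulum (ER), and in the stress response that monitors it. They were chosen by name, as unfolded protein response sensors, ER chaperones, disulfide isomerases, translocation genes and ER-associated degradation genes, among 38926 genes with deposited FPKM values (fragments scaled by the authors to gene length and sequencing depth). All 32 were in the table and all 32 had enough signal to be tested. RNA was sequenced from LSK cells, a Lin-Sca1+cKit+ bone marrow fraction of the mouse in which the blood-forming stem cells and early progenitors are found. The donors were wild-type C57BL/6 mice 8 to 12 weeks old. In the treated group (3 libraries) they had been injected with haloperidol, a dopamine receptor antagonist used as an antipsychotic, for 3 consecutive days. The control group (3 libraries) received DMSO, the vehicle, on the same schedule. Both groups shared the crushing and collagenase IV digestion of femur and tibia, and the cells stayed in drug or vehicle during the sort.

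Proteins bound for the cell surface, secretion or the organelles of the secretory pathway enter the ER through a membrane channel, are folded by chaperones and oxidised by disulfide isomerases. Those that fail to fold are drawn back into the cytosol and destroyed by the proteasome. When unfolded protein accumulates, the membrane sensors IRE1, ATF6 and PERK raise the transcription of folding and degradation genes and slow translation, a programme called the unfolded protein response. Haematopoietic stem cells are known to depend on tight control of protein synthesis and folding.

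With haloperidol the ER genes moved in both directions and by small amounts. The channel and translocon genes Sec61a1, Sec61b and Ssr1, the chaperone Calr and the isomerase P4hb rose by between 16.3% and 24.8% in mean FPKM. The transcription factor gene Xbp1, the chaperone Hspa5 and the degradation gene Herpud1 fell, with mean changes of -13.9%, -15.4% and -20.2%. The other 24 members did not pass the test. The test was limma on log2(FPKM + 1) over the 11436 genes with a mean of at least 1 FPKM, two-sided, with Benjamini-Hochberg adjustment and a threshold of 0.05. All log2 differences given here are haloperidol minus DMSO on that scale, which understates the change of low genes.

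The share of members past the threshold was 25.0%, close to the 24.5% of all genes tested. By direction, 5 members were higher against 11.5% of all genes, and 3 were lower against 13.0% of all genes. The groups did not overlap for 17 members (53.1%), 12 of them higher and 5 lower with haloperidol, against 43.1% of all genes (21.0% higher and 22.1% lower). Over the 32 members the median log2 difference was 0.07, and over all genes tested it was 0.00. The members' median absolute difference of 0.13 lay below the 0.16 of all genes. Their log2 differences ran from -0.32 for Herpud1 to 0.31 for Ssr1. As a whole the genes took a similar part of the RNA in both groups. Their reads, recovered from the steps between FPKM values, made up 0.887% to 0.923% of each DMSO library and 0.903% to 0.945% of each haloperidol library.

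**Figure D1:**
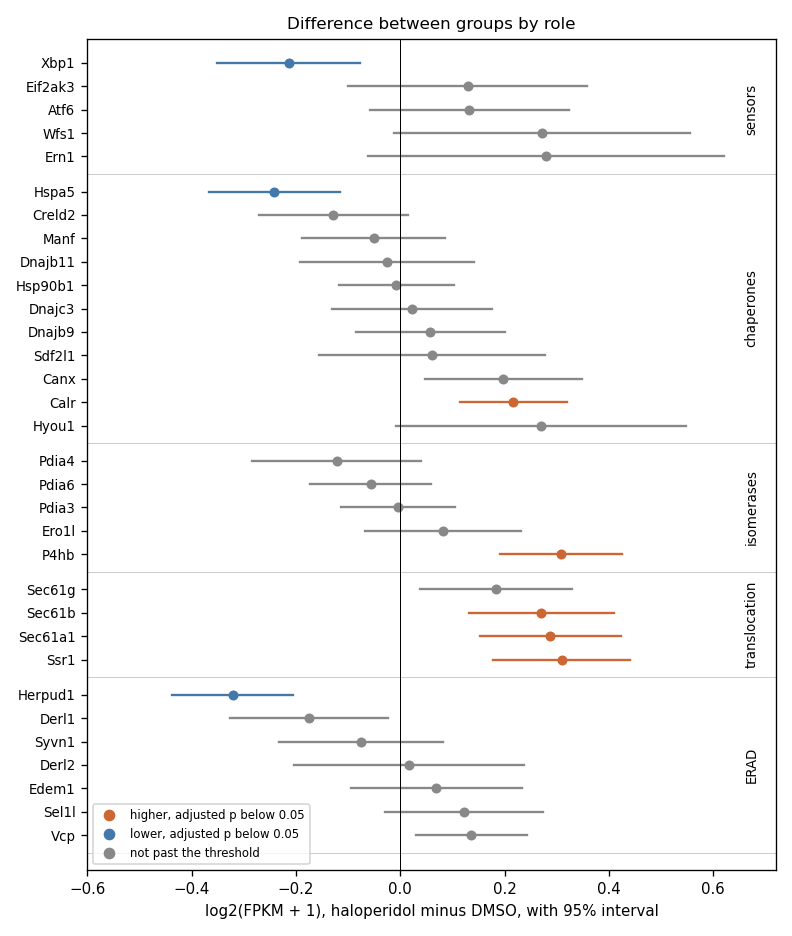
Log2 difference in FPKM + 1, haloperidol minus DMSO, of each of the 32 ER genes ordered by role, with its 95% interval from limma (3 libraries a group). Coloured points passed the adjusted threshold: Calr, P4hb, Sec61a1, Sec61b and Ssr1 lie to the right of 0, and Xbp1, Hspa5 and Herpud1 to the left.

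The libraries were alike in depth, with 8523556 to 8969076 reads assigned to genes and 11378 to 11529 genes at 1 FPKM or more. The gate markers Kit (69.8 to 96.3 FPKM) and Ly6a, which encodes Sca1 (125 to 147 FPKM), were present in every library. Markers of mature T cells were near 0, with a summed level of at most 2.05 FPKM and Cd8a at 0 in every library. The B cell markers Pax5, Ms4a1 and Cd22 were below 0.3 FPKM in every library, but Cd79b of the same list stood at 21.4 to 33.4 FPKM. Hba-a1 alone stood between 788 and 1208 FPKM, so haemoglobin RNA was present in all 6 libraries. Nothing in the labels states that replicates of a group are separate mice, so p-values measure only how these samples vary, and that variation can be technical. It is also not stated whether the groups were processed together, and such a batch and the treatment cannot be told apart. In sorted bulk samples a shift between cells of different types and a change of RNA per cell cannot be told apart either.

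Of the 5 sensor and transducer genes, Xbp1 alone passed the test (20%, against 24.5% of all genes tested). Xbp1 encodes the transcription factor whose mRNA is spliced by IRE1 (chr11:5520659-5525893, plus strand, mm10 coordinates of GENCODE here and for the other genes). It measured 70.1, 69.0 and 73.0 FPKM in DMSO replicates 1, 2 and 3, and 56.5, 61.3 and 64.9 FPKM in haloperidol replicates 1, 2 and 3. Each haloperidol library was below each DMSO library. The mean fell by 13.9%, from 70.7 ± 2.05 to 60.9 ± 4.18 FPKM (SD, n = 3 each), a log2 difference of -0.21 (SE 0.06, limma adjusted p = 0.0335). The call ended when genes were tested without a filter (adjusted p = 0.0686) and when any library other than haloperidol replicate 3 was left out. Over the 14 other settings its adjusted p ran from 0.0125 to 0.0989, and the log2 difference from -0.26 to -0.16. Gene-level FPKM do not separate spliced from unspliced Xbp1, so IRE1 activity was not measured.

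The sensors themselves were expressed at low levels. Ern1, which encodes the kinase and nuclease IRE1 (chr11:106394650-106487852, minus strand), measured 1.80, 2.0 and 1.19 FPKM in the DMSO libraries and 2.06, 2.01 and 2.57 FPKM in the haloperidol libraries. The lowest treated library exceeded the highest control library by little, and DMSO replicate 3 was the lowest of all. The log2 difference of 0.28 (SE 0.15) did not pass (limma adjusted p = 0.209), with a 95% interval of -0.06 to 0.62 and only 88 to 187 reads a library. Atf6 encodes the sensor that is released by cleavage in the Golgi (chr1:170704674-170867771, minus strand). It measured 3.91, 4.33 and 3.99 FPKM with DMSO and 4.67, 4.61 and 4.40 FPKM with haloperidol. All 3 treated values were above the controls, yet the log2 difference of 0.13 (SE 0.08) did not pass (limma adjusted p = 0.286). Eif2ak3 encodes PERK, the kinase that slows translation by phosphorylating eIF2alpha (chr6:70844515-70905245, plus strand). Its values of 3.86, 3.69 and 3.35 FPKM with DMSO overlapped those of 4.15, 4.46 and 3.62 FPKM with haloperidol, and the log2 difference was 0.13 (95% interval -0.10 to 0.36). Wfs1, an ER membrane protein linked to calcium handling and Wolfram syndrome, averaged 1.34 ± 0.181 and 1.82 ± 0.181 FPKM on 36 to 62 reads a library, a log2 difference of 0.27 (95% interval -0.01 to 0.56).

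**Figure D2:**
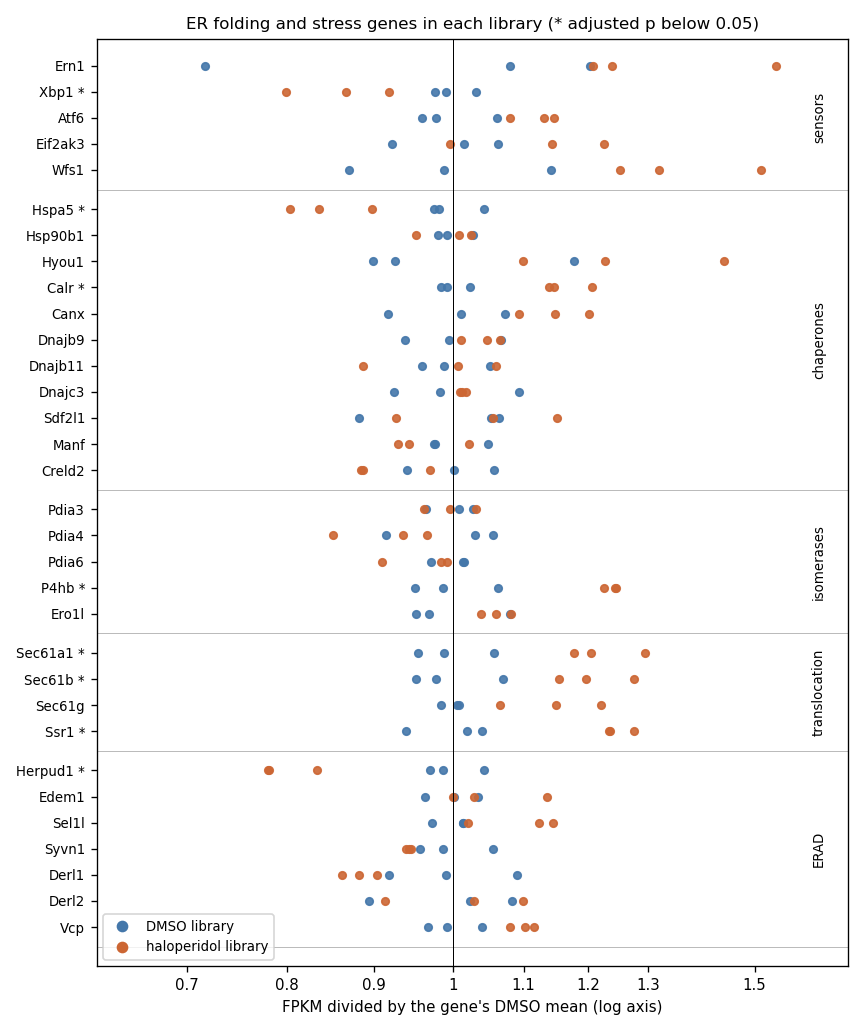
FPKM of each ER gene in each library divided by that gene's DMSO mean, on a log axis, with genes in rows ordered by role, blue points for the 3 DMSO libraries, orange points for the 3 haloperidol libraries and an asterisk for genes past the threshold. All orange points lie to the right of the blue ones for 12 genes, among them the 4 translocation genes, Calr and P4hb. They lie to the left for 5 genes, among them Xbp1, Hspa5 and Herpud1.

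Among the 11 chaperone and cofactor genes, 1 rose and 1 fell (18.2%, against 24.5% of all genes tested), and 9 did not pass. Hspa5 encodes BiP, the ER member of the HSP70 family that holds the sensors inactive while folding is in balance (chr2:34771970-34777547, plus strand). It was the most abundant member, at 502, 505 and 537 FPKM with DMSO and 414, 430 and 462 FPKM with haloperidol. The groups were separate, with haloperidol replicate 1 lowest. The mean fell by 15.4%, from 515 ± 19.2 to 435 ± 24.4 FPKM, a log2 difference of -0.24 (SE 0.06, limma adjusted p = 0.0150). The call ended without haloperidol replicate 1 (adjusted p = 0.0566) and without a filter on low values (adjusted p = 0.0556). Its range over the 14 other settings was 0.00108 to 0.0566.

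Calr encodes calreticulin, the soluble lectin that holds newly made glycoproteins and buffers ER calcium (chr8:84841850-84846934, minus strand). The DMSO libraries held 297, 306 and 294 FPKM, and the haloperidol libraries 343, 361 and 340 FPKM. Every treated library exceeded every control library. The mean rose by 16.3%, from 299 ± 6.24 to 348 ± 11.1 FPKM, a log2 difference of 0.22 (SE 0.05, limma adjusted p = 0.0105). Calr and Hspa5 thus moved in opposite directions inside the same libraries. The ratio of Calr to Hspa5 FPKM was 0.591, 0.606 and 0.549 with DMSO and 0.828, 0.838 and 0.737 with haloperidol. That ratio follows from the values above and is no separate evidence.

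Canx encodes calnexin, the membrane-bound partner of calreticulin. It averaged 116 ± 9.12 FPKM with DMSO and 133 ± 6.27 with haloperidol in groups that did not overlap. The log2 difference of 0.20 (SE 0.07) lay just outside the threshold (limma adjusted p = 0.0603). It passed in 5 of the 14 other settings, among them the one without DMSO replicate 2 (adjusted p = 0.0491), and over all of them its adjusted p ran from 0.0167 to 0.165. Hsp90b1, the ER member of the HSP90 family, averaged 131 ± 3.19 and 130.0 ± 4.94 FPKM, with a 95% interval of the log2 difference from -0.12 to 0.10. For Hyou1, a large HSP70-like exchange factor, the means were 4.13 ± 0.634 and 5.18 ± 0.712 FPKM, and the interval was -0.01 to 0.55. The DnaJ co-chaperones that stimulate BiP gave log2 differences of 0.06 for Dnajb9, -0.02 for Dnajb11 and 0.02 for Dnajc3. Sdf2l1, a partner of the ER DnaJ proteins, and the secreted stress-induced proteins Manf and Creld2 gave 0.06, -0.05 and -0.13. The 95% interval was -0.19 to 0.09 for Manf and -0.27 to 0.01 for Creld2.

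Promoter letters were examined because several chaperone genes share the ER stress response element (ERSE), which NF-Y and ATF6 are known to bind. The element was searched as CCAAT, then 9 bases of any letter, then CCACG, on both strands of the RefSeq promoter windows of GRCm38.p6, which run from 250 bases before to 50 bases after the gene start. It was found in 39 of 32851 windows (0.119%). By gene this was 37 of 27025 (0.137%), and 8 of the 27 members with a window (29.6%). Since the element was described from such genes, that share is no independent finding. The 8 were Hspa5, Hsp90b1, Calr, Canx, Dnajc3, Creld2, Pdia6 and Syvn1. The sites of Calr, Hspa5, Canx and Creld2 are shown because Calr rose and Hspa5 fell with the same fixed letters, and Canx and Creld2 came next in order of p. Capitals mark the fixed letters of the element, each read with CCAAT first.
Calr: atgggCCAATgagggtcgaCCACGcgttg
Hspa5: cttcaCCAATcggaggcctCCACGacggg
Canx: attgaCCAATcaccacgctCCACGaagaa
Creld2: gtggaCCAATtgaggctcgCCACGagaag
The Calr site lies at chr8:84847070-84847098 (plus strand, opposite to the gene), with its element 144 to 162 bases before the start. The Hspa5 site is at chr2:34772020-34772048 (plus strand, as the gene), 47 to 65 bases before the RefSeq start. GENCODE begins Hspa5 farther upstream, at 34771970, so by those coordinates the site lies inside the gene. That of Canx is at chr11:50325795-50325823 (minus strand, as the gene), 127 to 145 bases before the start. That of Creld2 is at chr15:88819515-88819543 (minus strand, opposite to the gene), 108 to 126 bases before the start.

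The surroundings of the element are given for Calr, which rose, and for its partner Canx, both 5′ to 3′ on the gene's strand and from 200 to 21 bases before the start. They lie at chr8:84846952-84847131 and chr11:50325694-50325873, both on the minus strand. Capitals again mark the element, which on the Calr gene strand reads in its reverse form, with CGTGG before ATTGG.
Calr promoter: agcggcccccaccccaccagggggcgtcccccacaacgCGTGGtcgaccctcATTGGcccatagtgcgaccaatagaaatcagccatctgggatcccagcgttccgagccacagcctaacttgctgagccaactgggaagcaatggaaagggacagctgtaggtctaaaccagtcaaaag
Canx promoter: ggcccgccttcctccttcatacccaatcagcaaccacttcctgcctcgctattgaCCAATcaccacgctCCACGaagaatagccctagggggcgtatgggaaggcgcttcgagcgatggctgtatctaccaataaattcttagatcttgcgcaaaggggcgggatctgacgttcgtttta
Genes with the element did not share a direction. Among the 8 members that carry it, Calr rose, Hspa5 fell and 6 did not pass, with a median log2 difference of -0.03. The 19 members with a window and no such match had 3 higher and 2 lower, with a median of 0.08. Of all genes tested, 11.5% were higher and 13.0% lower, and whether these sets differ was not tested. Over all windows 37 genes held the element, and of the 15 that were tested 2 rose and 1 fell, with a median of -0.01. The riser besides Calr was Hnrnpa3, an RNA-binding protein gene named after its value was seen (log2 difference 0.41, SE 0.07, limma adjusted p = 0.00501). A match is a run of letters and shows no binding.

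**Figure D3:**
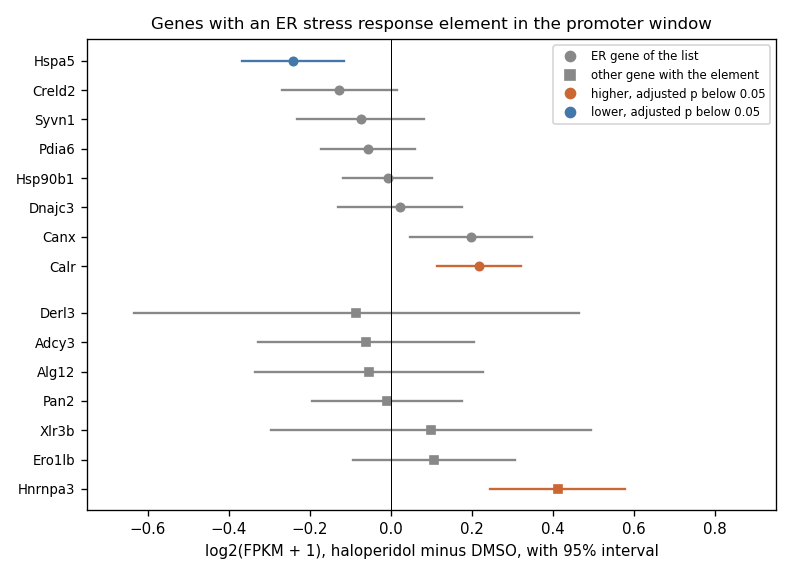
Log2 difference in FPKM + 1, haloperidol minus DMSO, with its 95% interval from limma, of the 15 tested genes whose promoter window holds the ERSE letters, ER members and other genes marked apart. Calr and Hnrnpa3 lie to the right of 0, Hspa5 to the left, and the rest did not pass the threshold.

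Of the disulfide isomerases and their oxidase, 1 of 5 rose (20%, against 24.5% of all genes tested) and 4 did not pass. P4hb encodes protein disulfide isomerase itself, which is also a subunit of prolyl 4-hydroxylase (chr11:120560298-120573253, minus strand). It measured 218, 244 and 227 FPKM with DMSO and 281, 286 and 286 FPKM with haloperidol. All treated libraries were above all controls and close to each other. The mean rose by 23.8%, from 230 ± 13.1 to 284 ± 2.56 FPKM, a log2 difference of 0.31 (SE 0.05, limma adjusted p = 0.00389). The ratio of P4hb to Hspa5 FPKM was 0.435, 0.483 and 0.422 with DMSO and 0.680, 0.664 and 0.618 with haloperidol. That ratio, too, follows from the values of the 2 genes and is no separate evidence. The relatives of P4hb did not pass. Pdia3, which works with calreticulin and calnexin on glycoproteins, averaged 271 ± 8.74 and 270.2 ± 9.33 FPKM, with a 95% interval of the log2 difference from -0.11 to 0.11. Pdia4 averaged 81.1 and 74.4 FPKM (-0.12, 95% interval -0.28 to 0.04), and Pdia6 149.5 and 143.8 FPKM (-0.06, 95% interval -0.17 to 0.06). The oxidase gene Ero1l, whose product passes electrons from the isomerases to oxygen, averaged 16.6 and 17.6 FPKM (0.08, 95% interval -0.07 to 0.23).

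In the translocation group, 3 of 4 genes rose, against 11.5% of all genes tested, and all 4 were separate and higher, against 21.0% of all genes. Their median log2 difference was 0.28. These are 4 genes, and no test of the group was made. Libraries also did not overlap, in either direction, for 4 of 5 sensor and transducer genes and 5 of 7 degradation genes. The same held for 3 of 11 chaperone genes and 1 of 5 isomerase and oxidase genes, against 43.1% of all genes. Sec61a1 encodes the pore of the Sec61 channel (chr6:88503579-88518905, minus strand). It measured 46.6, 51.5 and 48.2 FPKM with DMSO and 57.4, 58.7 and 63.1 FPKM with haloperidol. The mean rose by 22.5%, from 48.7 ± 2.52 to 59.7 ± 3.00 FPKM (log2 difference 0.29, SE 0.06, limma adjusted p = 0.010). GENCODE places exons of Gm44170 on the opposite strand over 549 of its 6732 exon bases (8.16%), and these unstranded libraries cannot separate the reads of the pair.

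Sec61b, the beta subunit of the channel (chr4:47474658-47483242, plus strand), measured 90.7, 80.7 and 83.0 FPKM with DMSO and 97.8, 101 and 108 FPKM with haloperidol. Its groups were separate, and its mean rose by 20.8%, from 84.8 ± 5.24 to 102 ± 5.30 FPKM (log2 difference 0.27, SE 0.06, limma adjusted p = 0.0145). Without DMSO replicate 2 this call ended (adjusted p = 0.0585), the highest of a range from 0.00545 over the 14 other settings. Ssr1 encodes the alpha subunit of the translocon-associated protein complex, which helps some signal sequences to enter (chr13:37966605-37994217, minus strand). It measured 23.7, 26.3 and 25.7 FPKM with DMSO and 32.2, 31.2 and 31.2 FPKM with haloperidol. Its rise of 24.8%, from 25.2 ± 1.34 to 31.5 ± 0.586 FPKM, was the largest percentage among the members past the threshold (log2 difference 0.31, SE 0.06, limma adjusted p = 0.00629). Sec61g, the gamma subunit, measured 18.7, 18.3 and 18.8 FPKM with DMSO and 21.4, 19.8 and 22.7 FPKM with haloperidol. Those groups were also separate, but the log2 difference of 0.18 (SE 0.06) did not pass (limma adjusted p = 0.0686).

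**Figure D4:**
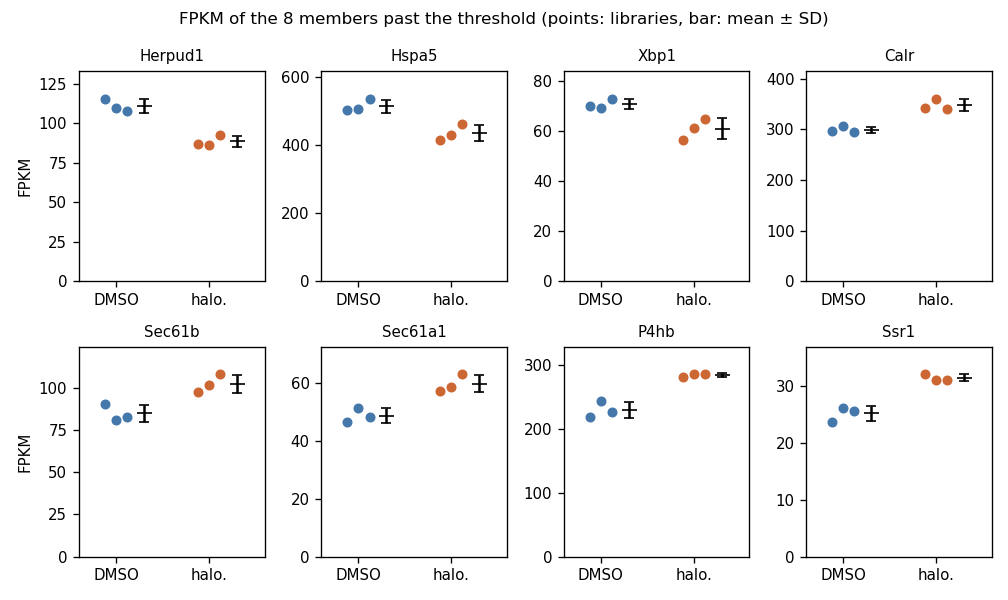
FPKM in each library of the 8 ER genes past the threshold, as points for the 3 DMSO and 3 haloperidol libraries with the group mean and SD. In each panel the groups do not overlap: Calr, P4hb, Sec61a1, Sec61b and Ssr1 were higher with haloperidol, and Xbp1, Hspa5 and Herpud1 lower.

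Among the 7 ER-associated degradation genes, 1 fell (14.3%, against 24.5% of all genes tested) and 6 did not pass. Herpud1 encodes a membrane protein that assembles the ubiquitin ligase complex and is strongly induced by ER stress (chr8:94386438-94395377, plus strand). It measured 116, 109 and 108 FPKM with DMSO and 86.6, 86.4 and 92.4 FPKM with haloperidol. The highest treated library was well below the lowest control library. The mean fell by 20.2%, from 111 ± 4.17 to 88.5 ± 3.39 FPKM, a log2 difference of -0.32 (SE 0.05, limma adjusted p = 0.00320). Among the 32 genes this was the largest difference in either direction on the log2(FPKM + 1) scale, and the smallest adjusted p. The largest percentage changes in mean FPKM were the increases of Wfs1 (36.2%) and Ern1 (33.0%). Both are low genes with few reads, and neither passed. Its promoter window holds the related element ERSE-II, searched as ATTGG, 1 base of any letter and CCACG on both strands and present in 12 of the 32851 windows (0.0365%). The site is at chr8:94386368-94386396 (plus strand, as the gene), with the element 42 to 52 bases before the start, and was added to the printed set after its value was seen.
Herpud1: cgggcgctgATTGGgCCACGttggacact
Dnajb11 was the only other member with that element in its window, and it did not pass the test. The third element searched, TGACGTGG on either strand, letters attributed to XBP1 binding, was in 222 windows (0.676%) and in 1 member, Vcp.

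The remaining degradation genes had small differences. Derl1, a channel component of retrotranslocation, averaged 57.2 ± 4.92 and 50.4 ± 1.19 FPKM with separate groups (log2 difference -0.17, limma adjusted p = 0.0895). It passed in 1 other setting, without DMSO replicate 1 (adjusted p = 0.0400). Vcp, the ATPase that pulls substrates out of the membrane, averaged 121 ± 4.44 and 133 ± 2.11 FPKM, again with separate groups (log2 difference 0.14, limma adjusted p = 0.0653). The ligase Syvn1 and its partner Sel1l gave log2 differences of -0.08 (95% interval -0.23 to 0.08) and 0.12 (95% interval -0.03 to 0.27). Edem1, a mannosidase-like lectin, and Derl2, a relative of Derl1, gave 0.07 (95% interval -0.09 to 0.23) and 0.02 (95% interval -0.20 to 0.24).

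The calls of Calr, P4hb, Sec61a1, Ssr1 and Herpud1 held in all 14 other settings. Some cell type markers moved with the groups as well. Markers of granulocyte progenitors summed to 609 to 663 FPKM with DMSO and 758 to 1026 FPKM with haloperidol, and 3 of their 5 tested genes rose (Prtn3, Ctsg and Ms4a3). Of the 7 stem and progenitor markers of the gate, Flt3 rose, Cd34 and Hlf fell and the other 4 did not pass, with sums of 989 to 1029 and 893 to 940 FPKM. B cell markers summed to 34.7 to 36.2 FPKM with DMSO and 22.4 to 25.0 with haloperidol, most of it Cd79b, and both tested genes, Cd79a and Cd79b, fell. Plasma cells are rich in ER and express Xbp1 strongly, so their markers were read beside the Xbp1 result. The 9 plasma cell markers outside the ER lists summed to 19.0 to 28.2 FPKM with DMSO and 8.68 to 38.6 with haloperidol, with 4 of them below 1 FPKM in every library. The 38.6 was reached in haloperidol replicate 3, where Igha alone measured 26.5 FPKM, against 1.69 and 2.50 in the other treated libraries. Sdc1 fell, from 12.9 to 14.6 FPKM in the DMSO libraries to 3.05 to 4.40 in the haloperidol libraries. Mzb1, Pou2af1 and Slamf7 were too low to be tested, and each was lower in every haloperidol library than in every DMSO library. Mzb1 measured 2.48, 1.4 and 0.858 FPKM with DMSO and 0.514, 0.746 and 0 FPKM with haloperidol, and Pou2af1 reached at most 0.393 FPKM. The groups overlapped for the rest of the list, Igj, Igha, Prdm1, Irf4 and Tnfrsf17, and the Igj mean was higher with haloperidol (2.92 to 3.93 FPKM). Groups without overlap were seen for 43.1% of all genes tested. Erythroid markers summed to 897 to 1305 FPKM with DMSO and 992 to 1281 with haloperidol, with 1 of 6 lower, and neutrophil and monocyte markers to 147 to 239 and 159 to 262 with none of 7 tested genes past the threshold. The part of these shifts in the ER results was not tested.

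Beyond the 32 genes, 130 further genes of the same pathways were read from 8 lists chosen by function. Of these 117 were tested, 23 rose and 17 fell (34.2% past the threshold, against 24.5% of all genes tested, 11.5% higher and 13.0% lower), with a median log2 difference of 0.02. Their median absolute log2 difference was 0.12, beside 0.13 for the members and 0.16 for all genes. Their median standard error was 0.0686, beside 0.0885 for all genes. The lists were chosen with earlier results of these data known, so the shares here and in the lists below are no independent finding.

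In the integrated stress response, the arm downstream of PERK and related kinases, 3 of 14 tested genes rose and 4 fell (50% past the threshold, against 24.5% of all genes tested). Ppp1r15a encodes GADD34, the phosphatase subunit that restores translation. It measured 225, 213 and 219 FPKM with DMSO and 128, 131 and 131 FPKM with haloperidol, so the groups were far apart and each tight. The log2 difference was -0.75 (SE 0.04, limma adjusted p = 4.18e-05). Atf3, a stress-induced transcription factor, rose from 80.7 ± 2.69 to 114 ± 6.74 FPKM (0.49, limma adjusted p = 7.25e-04). Asns, the asparagine synthetase gene induced by ATF4, rose from 10.4 ± 1.81 to 19.8 ± 0.924 FPKM (0.88, limma adjusted p = 9.61e-04). The lipoprotein receptor gene Vldlr fell from 6.78 ± 0.815 to 4.76 ± 0.328 FPKM (-0.43, limma adjusted p = 0.0152), a call that ended without DMSO replicate 2 (0.0563) or haloperidol replicate 1 (0.0516). The central factors did not pass: Atf4 averaged 110 ± 3.30 and 108 ± 5.91 FPKM (95% interval of the log2 difference -0.16 to 0.09), and Ddit3, which encodes CHOP, 15.1 ± 2.47 and 16.3 ± 3.12 FPKM (95% interval -0.22 to 0.42). These are RNA levels, and neither the proteins nor the activity of PERK and ATF6 was measured here.

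Among the other eIF2alpha kinases and the eIF2 subunits, Eif2s3x (21.9 to 29.1 FPKM, 0.39) and Eif2s2 (16.4 to 19.6 FPKM, 0.24) rose and Eif2s1 fell (80.7 to 69.8 FPKM, -0.20), of 6 tested. The share past the threshold was 50%, against 24.5% of all genes tested. Eif2ak1, the haem-regulated kinase, averaged 19.1 ± 1.27 and 18.1 ± 1.76 FPKM. The call of Eif2s2 ended without DMSO replicate 2 (limma adjusted p = 0.0569), and that of Eif2s1 without any library other than DMSO replicate 1 (up to 0.142). Of the 8 tested genes for sensor processing and related factors, Creb3, a membrane-bound transcription factor related to ATF6, fell from 15.5 ± 0.567 to 8.05 ± 0.466 FPKM (-0.86, SE 0.07, limma adjusted p = 1.38e-04). Rtcb, the ligase that rejoins the Xbp1 mRNA after IRE1 cleavage, rose from 93.2 ± 0.293 to 105 ± 3.27 FPKM (0.17, limma adjusted p = 0.0299), but its call ended when any of the 6 libraries was left out (0.0524 to 0.0901). The IRE1-associated signalling genes Traf2 and Map3k5 did not pass (-0.14 and 0.25).

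Further folding enzymes had 5 genes higher and 2 lower of 22 (31.8%, against 24.5% of all genes tested). The oxidase gene Qsox1 (14.7 to 19.8 FPKM, 0.41) and the thioredoxin-domain genes Txndc11 (14.2 to 19.5 FPKM, 0.43) and Txndc5 (44.6 to 55.0 FPKM, 0.29) rose, and Sdf2, the constitutive relative of Sdf2l1, fell (54.0 to 36.9 FPKM, -0.54, limma adjusted p = 5.44e-04). N-glycosylation and glycan trimming had 4 higher and 2 lower of 15 (40%, against 24.5% of all genes tested). Alg5, a glucosyltransferase of the lipid-linked donor, rose from 18.3 ± 0.497 to 22.6 ± 1.13 FPKM (0.29, limma adjusted p = 0.0101). Rpn2 (oligosaccharyltransferase, 109 to 122 FPKM), Mogs (glucosidase, 76.7 to 87.3 FPKM) and Man1b1 (mannosidase, 6.85 to 5.42 FPKM) passed by less. Rpn2 and Man1b1 lost their calls without any of the 6 libraries (limma adjusted p of 0.0506 to 0.101 and of 0.0603 to 0.125), and Mogs without any library other than haloperidol replicate 1 (up to 0.110).

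Further degradation genes had 3 higher and 3 lower of 21 (28.6%, against 24.5% of all genes tested). The ligase gene Rnf5 (35.0 to 25.1 FPKM, -0.47), the conjugating enzyme gene Ube2j1 (50.2 to 39.1 FPKM, -0.35) and Selk, an ER selenoprotein (122 to 101 FPKM, -0.28), fell. Herpud2, the relative of Herpud1, rose from 38.9 ± 1.2 to 45.5 ± 0.588 FPKM (0.22, limma adjusted p = 0.0129), while Herpud1 fell in the same libraries. The Herpud2 call ended without DMSO replicate 2 (0.0552).

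Further translocation genes also had 3 higher and 3 lower of 19 (31.6%, against 24.5% of all genes tested). The 4 translocation members had 3 higher and 0 lower. Whether the lists differ was not tested. Ssr4, a partner of Ssr1 in the translocon-associated complex, rose from 30.3 ± 1.05 to 41.3 ± 0.814 FPKM (0.43, limma adjusted p = 8.21e-04), and the signal recognition particle gene Srp9 rose from 70.5 ± 5.86 to 89.6 ± 3.45 FPKM (0.34). Srprb, a subunit of the particle's receptor (13.8 to 10.7 FPKM, -0.34), and Sec11a, of the signal peptidase (26.2 to 22.0 FPKM, -0.24), fell. The Sec11a call ended without DMSO replicate 3, haloperidol replicate 2 or haloperidol replicate 3 (limma adjusted p of 0.0718, 0.0744 and 0.0521).

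Retrieval and COPII export, the vesicle route out of the ER, had 2 higher and 1 lower of 12. The share past the threshold was 25%, against 24.5% of all genes tested. The cargo adaptor gene Sec24d rose from 10.8 ± 0.752 to 16.6 ± 0.758 FPKM (0.57, limma adjusted p = 0.00108), and Sar1a, the GTPase that starts the coat, fell from 144 ± 6.93 to 115 ± 7.22 FPKM (-0.32). The coat gene Sec31a passed (23.5 to 27.0 FPKM, 0.19, limma adjusted p = 0.0466) but not when any of the 6 libraries was left out (0.0566 to 0.145), and its partner Sec13 averaged 93.8 and 85.0 FPKM (-0.14).

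**Figure D5:**
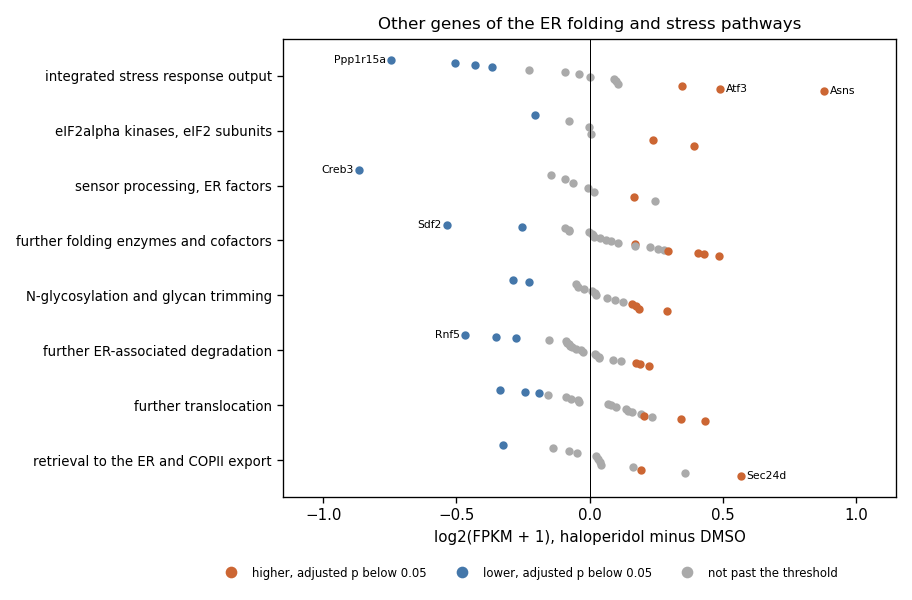
Log2 difference in FPKM + 1, haloperidol minus DMSO, of the 117 tested genes of 8 further pathway lists, 1 point a gene, coloured where the limma adjusted p was below 0.05. Ppp1r15a and Creb3 lie farthest to the left and Asns farthest to the right, at -0.75, -0.86 and 0.88, and all 8 lists hold points past the threshold on both sides.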

How the data were processed

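The authors deposited 1 table of FPKM values, with 1 column per library for 3 DMSO and 3 haloperidol libraries and 0 columns of other samples. Per the labels' protocols, cDNA was made with SMART-Seq v4 and turned into Nextera XT libraries, which keep no strand. Per the submitters' processing notes, the build was mm10, and the tools were TopHat2 2.1.1, HTSeq 0.6.1, DESeq2 and bcl2fastq. The annotation release is not given in the sources used here, nor is the counting mode. In each library FPKM rose in steps of 1 read for each gene, and these steps gave back whole reads for 100% of the 20633 genes above 0, within 0.001 reads. These reads gave the depth and 1 added alternative.

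The test was limma 3.58.1 in R 4.3.3 on log2(FPKM + 1), with a trend in the prior variance, no covariate, a mean of at least 1 FPKM, two-sided, and Benjamini-Hochberg adjustment over all 11436 genes at 0.05. Means and SDs are of FPKM. No pair of libraries agreed within sampling noise: within groups the reads had 2.80 to 4.48 of chi-square per degree of freedom. Replicate numbers are not stated to pair the libraries, so the main fit used no block.

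The members, lists and markers were chosen with earlier results of these data known. Named are all members, up to 4 measured genes with the smallest p of each further list, and Atf4, Ddit3 and Ppp1r15a. Values in each library are given for members past the threshold and for Ern1, Xbp1, Atf6, Eif2ak3 and Hspa5, and some others were added. ERSE sites are printed for up to 4 members in order of p. Promoter windows came from RefSeq (GRCm38.p6), positions from GENCODE M21 (GRCm38). Alternatives were another pseudocount, filter, scaling, block or prior, each library left out, and limma's voom on recovered reads, chosen after seeing the data. Fam8a1 and Azu1, listed but not matched, were not analysed here.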

Additional observations from a re-analysis of the deposited data

How the results depend on the processing

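Of the 8 members past the threshold, 5 kept their call in all 14 other settings, and of 36 named genes past it 23 did. Without a filter on low values (20633 genes tested) 1 member was lower in place of 3, with 0 lower among sensors and 0 among chaperones, and 848 of all genes were higher in place of 1320. With a minimum of 5 FPKM, with the replicate block and with a robust prior, 2 chaperones were higher in place of 1. Voom on recovered reads, added after seeing the data, called 8 members higher in place of 5, with 3 chaperones and 1 degradation gene higher. Replicate numbers are not stated to mark a shared mouse. After each gene's group mean was subtracted, same-numbered DMSO and haloperidol libraries correlated at 0.01, 0.05 and 0.02 across genes. Pairs with other numbers gave -0.09 to 0.06 on the same measure. With the block 6 members were higher and 3 lower, and 1208 and 1344 of all genes.

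Leaving out each library in turn gave 1 to 3 members lower, 0 to 1 sensors lower, 1 to 2 chaperones higher, 0 to 1 chaperones lower, 1 to 2 degradation genes lower and 817 to 985 of all genes higher. Only without haloperidol replicate 1 was 1 member lower. The cause of these shifts was not tested. The sign changed for 8 named genes, none past the threshold in any setting where it did: Pdia3 with upper quartile scaling (0.0020), Derl2 with common sum scaling (-0.0014), and, with each library left out in turn, Hsp90b1 (-0.029 to 0.023), Dnajb11 (-0.078 to 0.047), Dnajc3 (-0.031 to 0.086), Sdf2l1 (-0.025 to 0.143), Pdia3 (-0.030 to 0.021), Derl2 (-0.050 to 0.080), Eif2ak1 (-0.125 to 0.0024) and Ddit3 (-0.044 to 0.219). Depth limits Wfs1, with 36 to 62 reads a library, and Ern1, with 88 to 187.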
